A study of Mus musculus with 4 samples.

Results

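The immediate early genes examined here were Fos, Jun, Junb, Egr1, Ier2, Klf2, Klf4, Zfp36, Btg2 and Dusp1. They were chosen by name: every probe whose platform gene symbol is one of these 10 was taken, which gave 12 of 25697 probes and 10 of 16593 genes with a probe, with 3 probes for Klf4 and 1 for each of the others. Expression was measured in heart tissue of C57Bl6 mice aged 8 to 9 weeks, on single-channel Illumina bead arrays. The amount of tissue recorded for each sample was 30 mg. All animals carried floxed alleles of the mineralocorticoid receptor (MR flox/flox), the nuclear receptor that binds aldosterone and deoxycorticosterone, and all had 1 kidney removed. The WT groups, given vehicle or DOC/salt, had the floxed alleles without Cre, and the CM-MRKO groups, given either as well, also carried MLC2v Cre. That Cre uses the ventricular myosin light chain promoter and acts in ventricular cardiomyocytes, so the receptor gene of atrial myocytes, endothelial cells, fibroblasts and blood cells is not its target. Vehicle or DOC/salt (deoxycorticosterone with a salt load) was given for 8 days according to each sample's treatment label, while a separate protocol text names vehicle for all 4 samples. Each group's RNA was a pool of equal amounts from 8 animals, measured on 1 array, so no value below has a replicate and no difference has a test. The number of arrays, 4, limits the precision.

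Immediate early genes are switched on within minutes of a stimulus, without new protein synthesis, because the factors that start their transcription are already in the cell. Growth factors, stretch and adrenergic signals reach them through MAP kinases, serum response factor and CREB, and their short-lived mRNAs are soon removed again. Fos, Jun and Junb encode subunits of the AP-1 transcription factor, Egr1 encodes a zinc finger factor, and Klf2 and Klf4 encode Krüppel-like factors known in endothelium for their response to blood flow. Dusp1, Zfp36 and Btg2 belong to the shut-off arm: Dusp1 is a phosphatase that inactivates MAP kinases, Zfp36 (tristetraprolin) binds AU-rich elements and speeds mRNA decay, and Btg2 binds the deadenylase complex. In heart, these genes are known as early markers of pressure load and of tissue handling.

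The start regions of Dusp1, Klf2 and Zfp36 are shown because Dusp1 and Klf2 lay toward one end of the 7 detected genes, and Zfp36 at or near the other, in the comparisons with WT vehicle. The 250 bases before the RefSeq start (build GRCm38.p6) are given 5′ to 3′ on the gene's strand. Capitals mark the CRE motif TGACGTCA and its core TGACGT, the EGR motif GCGNGGGCG, the CArG box of serum response factor and the MEF2 box, searched on both strands; TGACGT lies within TGACGTCA, and GCGNGGGCG can overlap the Sp1 motif GGGCGG, which was searched but not capitalised.
Dusp1, chr17:26508473-26508722, minus strand: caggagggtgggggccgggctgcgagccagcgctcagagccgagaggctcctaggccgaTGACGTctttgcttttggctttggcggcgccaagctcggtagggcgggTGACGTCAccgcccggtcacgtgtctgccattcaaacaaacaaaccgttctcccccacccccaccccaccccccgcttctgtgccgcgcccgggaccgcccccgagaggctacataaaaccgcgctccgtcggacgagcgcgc
Klf2, chr8:72318812-72319061, plus strand: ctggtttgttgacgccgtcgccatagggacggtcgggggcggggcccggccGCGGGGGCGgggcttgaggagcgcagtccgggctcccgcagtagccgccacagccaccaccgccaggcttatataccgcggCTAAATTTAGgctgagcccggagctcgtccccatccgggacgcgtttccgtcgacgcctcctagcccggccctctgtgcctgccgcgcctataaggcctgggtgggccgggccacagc
Zfp36, chr7:28379229-28379478, minus strand: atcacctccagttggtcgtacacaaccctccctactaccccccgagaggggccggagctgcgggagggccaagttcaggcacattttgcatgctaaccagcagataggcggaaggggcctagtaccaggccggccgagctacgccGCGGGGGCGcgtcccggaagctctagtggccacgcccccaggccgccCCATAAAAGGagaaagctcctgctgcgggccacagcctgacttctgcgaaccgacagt
Dusp1 held 1 TGACGTCA, 143 to 136 bases before the start, and a second TGACGT, 191 to 186 bases before it. Zfp36 held a CArG box 58 to 49 bases before the start and a GCGNGGGCG 105 to 97 bases before it. Klf2 held a MEF2 box 118 to 109 bases before the start and a GCGNGGGCG 199 to 191 bases before it. Promoters of 8 of the 10 genes were searched. Those of Egr1 and Ier2 were left out, so the counts below say nothing about these genes. Among these 8, TGACGTCA was found in 2 (Dusp1 and Btg2), against 1.55% of all 32851 promoter windows of the same length. The CArG box was found in 1, against 1.47%, GCGNGGGCG in 4 (Btg2, Klf2, Klf4 and Zfp36), against 4.70%, and the MEF2 box in 2 (Jun and Klf2), against 0.508%. TGACGT was found in 3 (Dusp1, Btg2 and Fos), against 6.47%, GGGCGG in 7, against 32.7%, and TATAAA in 1 (Fos), against 12.4%. The AP-1 motif TGANTCA and the core ACANNNTGT of the corticosteroid response element were found in 0 of the 8, against 6.75% and 5.84%. A match describes letters in this window, not a bound site.

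The arrays differed in brightness, and WT vehicle was the dimmest. Median deposited intensities ranged from 91.5 on WT vehicle to 102.7 on CM-MRKO DOC/salt, and the limit above which a probe counted as detected ranged from 108.7 to 121.7. Among genes detected on every array, the other 3 arrays exceeded WT vehicle by a median log2 difference of 0.31 at mean intensities of 100 to 200, 0.52 at 200 to 400 and 0.60 at 400 to 800 on the deposited values, and by -0.12, -0.05 and -0.07 after quantile normalization. Differences are therefore given on 3 scales side by side: quantile normalized after background correction, median scaled (each array brought to a common median, background left in) and deposited. Cardiomyocyte markers were bright, with Myl2 at 15901 to 21083 and Myl3 at 15274 to 21529. Among markers of other cell types, endothelial Egfl7 ranged from 6363 to 8478 and smooth muscle Acta2 from 9035 to 14685, and 8 of 9 endothelial, 7 of 8 fibroblast, 6 of 6 macrophage and 1 of 5 lymphocyte marker genes with a probe were detected on at least 1 array. Ryr2 and Col3a1, defining markers of cardiomyocytes and fibroblasts, were not detected on any array.

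**Figure D1:**
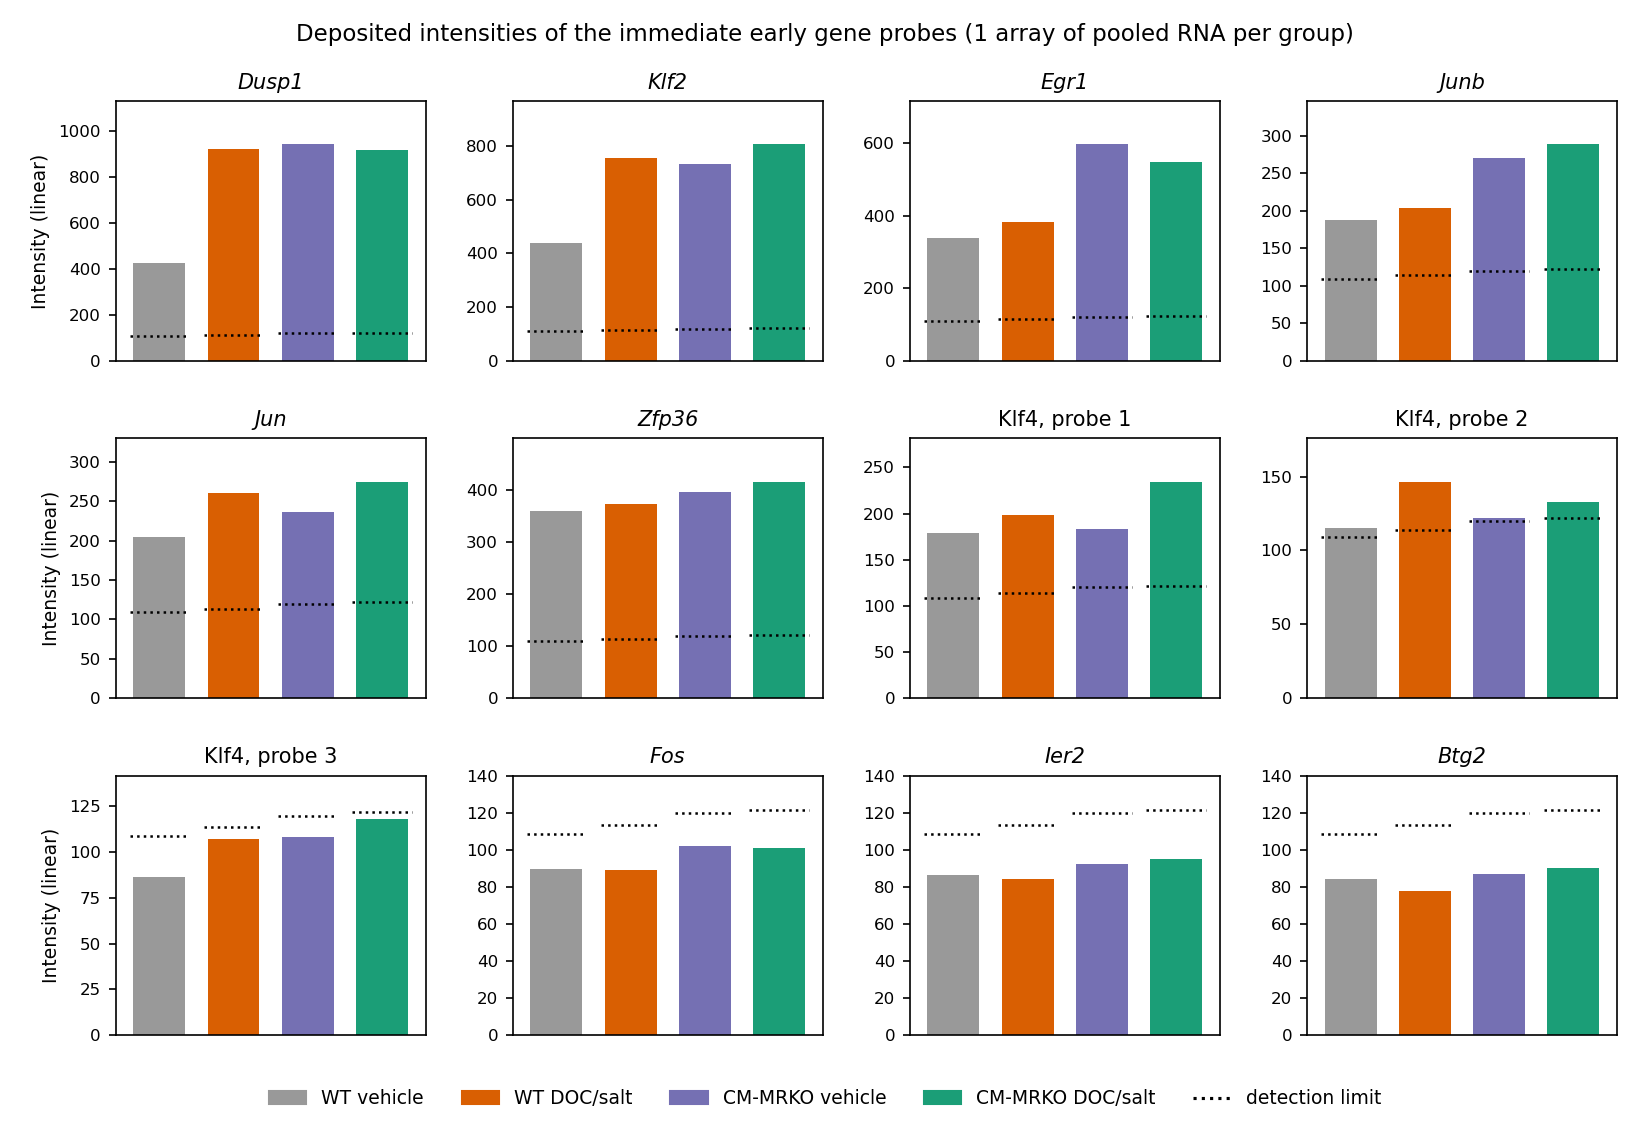
Deposited linear intensity (vertical axis, from 0) of all 12 immediate early gene probes on the 4 arrays, 1 bar per array; the dotted line is each array's detection limit. Dusp1 and Klf2 are lowest on WT vehicle, Egr1 and Junb are higher on both CM-MRKO arrays, and Fos, Ier2, Btg2 and the third Klf4 probe stay under the limit on every array.

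Of the 10 genes, 7 were detected on all 4 arrays and 3 (Fos, Ier2 and Btg2) on none. Fos read 89.7 on WT vehicle, 89.3 on WT DOC/salt, 102.1 on CM-MRKO vehicle and 100.9 on CM-MRKO DOC/salt. Ier2, which encodes a nuclear protein induced by growth factors, read 86.3, 84.0, 92.5 and 95.1 in the same order, and Btg2 84.1, 77.9, 86.9 and 90.1. All 12 of these values lay below the detection limit of their array, set from probes for odorant, vomeronasal and taste receptor genes, so no difference is given for these 3 genes. A low bead signal can come from a low mRNA level or from a weak probe, and the arrays do not separate the 2.

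Among the AP-1 subunits, Jun read 204.5 on WT vehicle, 260.7 on WT DOC/salt, 236.8 on CM-MRKO vehicle and 275.2 on CM-MRKO DOC/salt. Junb read 187.2, 203.2, 269.9 and 288.4 in the same order. Jun was brighter on the DOC/salt array of each genotype, whereas Junb was brighter on both CM-MRKO arrays than on both WT arrays. Across all 4 arrays the highest value of Jun was 1.35 times the lowest, and that of Junb 1.54 times.

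Egr1 read 338.6 on WT vehicle, 382.1 on WT DOC/salt, 596.1 on CM-MRKO vehicle and 548.1 on CM-MRKO DOC/salt. As deposited it was thus brighter on both CM-MRKO arrays than on both WT arrays. After quantile normalization its log2 values were 8.73, 8.21, 8.93 and 8.71, so WT vehicle was level with CM-MRKO DOC/salt. The range of Egr1 over the 3 arrays other than WT vehicle was 0.64 on the log2 scale of the deposited values, the widest of the 8 detected probes. For Junb that range was 0.51.

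Klf2 read 436.9 on WT vehicle, 754.0 on WT DOC/salt, 732.3 on CM-MRKO vehicle and 806.2 on CM-MRKO DOC/salt. Dusp1 read 425.3, 922.8, 942.7 and 920.0 in the same order. Both genes were dim on WT vehicle alone, and over the other 3 arrays they ranged by only 0.14 and 0.04 on the log2 scale of the deposited values. Zfp36 read 358.7, 372.4, 395.4 and 415.8, the narrowest relative range of the detected probes, with a highest value 1.16 times the lowest.

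Klf4 was measured by 3 probes that differed. The brightest, which represents the gene below, read 178.9 on WT vehicle, 198.3 on WT DOC/salt, 183.1 on CM-MRKO vehicle and 234.6 on CM-MRKO DOC/salt. The second read 115.4, 146.5, 121.8 and 133.0, close to the detection limit on every array but WT DOC/salt. The first was highest on CM-MRKO DOC/salt and the second on WT DOC/salt, and the third, at 86.4 to 118.2, was not detected on any array.

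Within WT, DOC/salt was set against vehicle. The immediate early genes split by scale: after quantile normalization 5 of the 7 detected genes were lower after DOC/salt, and on the deposited values all 7 were higher. Zfp36 had a log2 difference of -0.65 (1.57-fold lower) after quantile normalization, but 0.04 when median scaled and 0.05 as deposited. Egr1, Junb and Klf4 followed the same pattern, with -0.52, -0.49 and -0.44 after quantile normalization and 0.17, 0.12 and 0.15 on the deposited values. Dusp1 was higher on each scale, with log2 differences of 0.52 (1.44-fold), 1.10 (2.14-fold) and 1.12 (2.17-fold), and Klf2 was at 0.17, 0.77 and 0.79.

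Counted at 1.5-fold, 0 genes were higher and 1 (Zfp36) was lower after quantile normalization, where 8.79% of the 6391 genes compared were higher and 4.08% lower. With median scaling 2 (Dusp1 and Klf2) were higher and 0 lower, against 25.3% and 0.0313% of all genes, and on the deposited values the same 2 were higher and 0 lower, against 26.9% and 0.0313%. The median over the 7 genes was -0.44, 0.16 and 0.17 on the 3 scales, beside medians of -0.05, 0.38 and 0.39 over all genes. The value of -0.44 is that of the brightest Klf4 probe. With the mean of a gene's detected probes the quantile normalized median was -0.23, beside -0.04 over all genes. Since the scale moved the median of all genes, the members are also given relative to it. Relative to that median, Dusp1 was at 0.57 after quantile normalization and 0.73 on the deposited values, and Klf2 at 0.22 and 0.39. Zfp36 was at -0.60 and -0.34, Egr1 at -0.47 and -0.22, Junb at -0.44 and -0.27, Klf4 at -0.38 and -0.24, and Jun at -0.18 and -0.04. Read this way the order was the same on both scales at its ends, with Dusp1 highest and Zfp36 lowest; 3.18% of all genes lay at or above Dusp1 on the deposited values (10.6% after quantile normalization), and 7.71% lay at or below Zfp36 (2.46%). The technical spread, estimated from probe pairs that target the same gene, was 0.33 (log2) here after quantile normalization and holds no spread between animals.

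**Figure D2:**
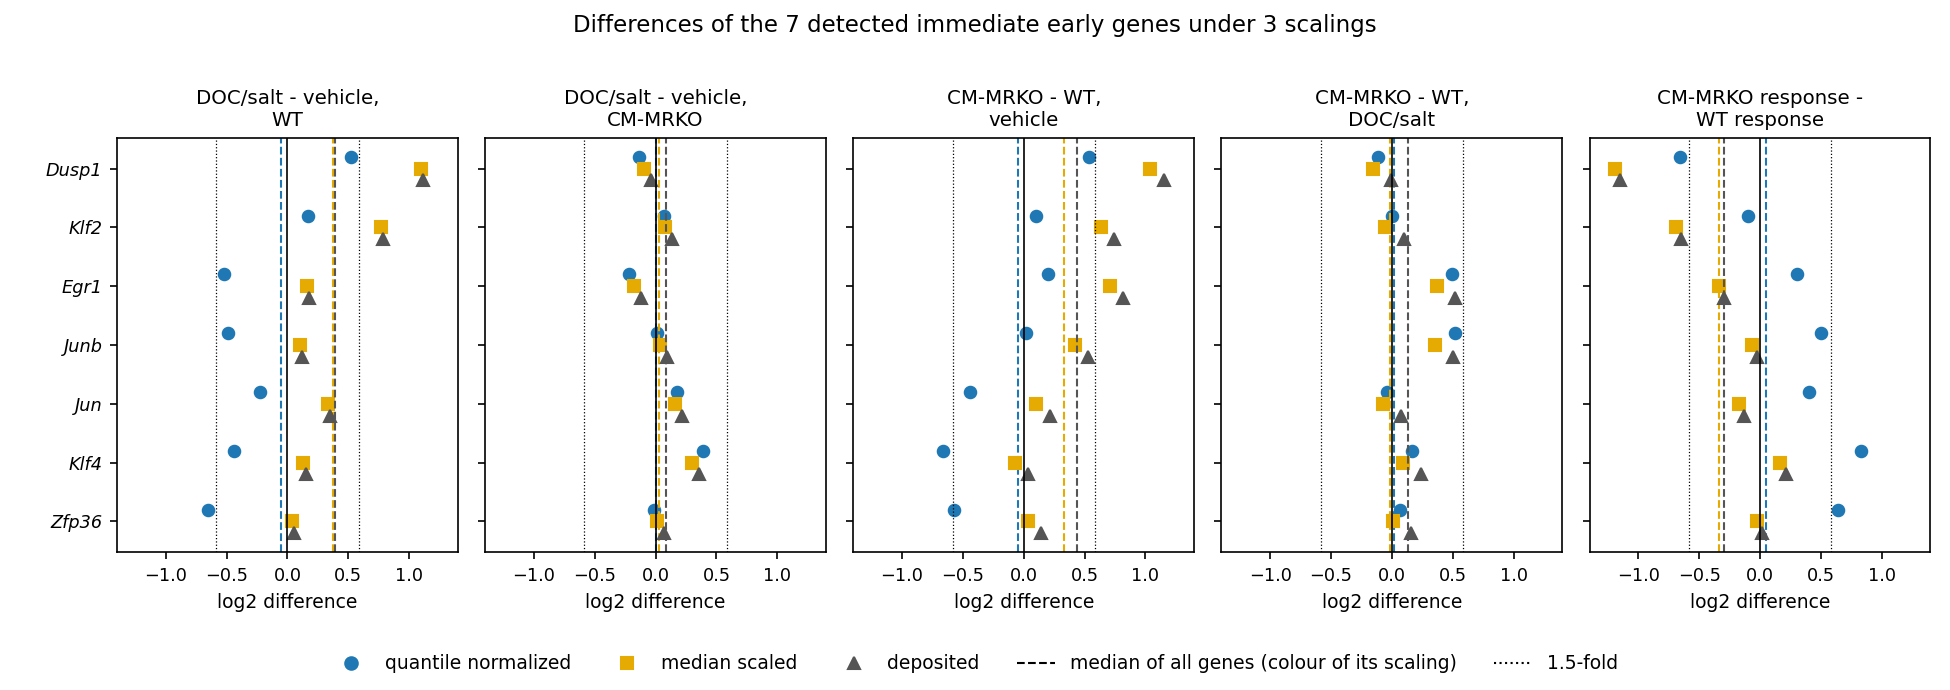
Log2 differences (horizontal axis) of the 7 detected immediate early genes in the 4 comparisons and in the difference of the DOC/salt responses, on 3 scales; dashed lines are the median of all genes on each scale and dotted lines 1.5-fold. In the panels that use the WT vehicle array the scales lie apart, and in the CM-MRKO response and under DOC/salt they lie close together.

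Within CM-MRKO, the same treatment was set against vehicle in hearts whose ventricular cardiomyocytes are meant to lack the receptor; no probe was named for the receptor gene itself, so the genotype labels have no check here. The immediate early genes differed little: Klf4 had the largest log2 difference, 0.39 (1.31-fold higher), with 0.30 by median scaling and 0.36 on the deposited values. Its second probe was at 0.10, 0.07 and 0.13, the same direction at a smaller size. Egr1 was lower, at -0.22, -0.18 and -0.12, and Jun higher, at 0.17, 0.16 and 0.22. Dusp1 was at -0.13, -0.09 and -0.04, Klf2 at 0.07, 0.08 and 0.14, Junb at 0.01, 0.04 and 0.10, and Zfp36 at -0.01, 0.01 and 0.07. None of the 7 passed 1.5-fold in either direction on these 3 scales. Among all 6668 genes compared, 0.630% were higher and 0.420% lower after quantile normalization, 0.0900% and 0.0600% with median scaling, and 0.105% and 0.0150% on the deposited values, so few genes of any kind passed. The median over the 7 was 0.01 after quantile normalization, as was that over all genes. After quantile normalization 3.48% of all genes lay at or above Klf4. The technical spread was 0.17 on that scale, which Klf4 and Egr1 exceeded and Jun equalled to 2 decimals.

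The genotypes were next compared under vehicle. Dusp1 was again higher on each scale, at a log2 difference of 0.54 (1.45-fold) after quantile normalization, 1.04 (2.06-fold) when median scaled and 1.15 (2.22-fold) as deposited. Egr1 was at 0.20, 0.71 and 0.82, and Klf2 at 0.10, 0.64 and 0.75, so their size rested on the scale while the direction did not. Klf4 was 1.58-fold lower after quantile normalization (-0.66), at -0.07 when median scaled and at 0.03 as deposited, and its second probe was at -0.42, -0.03 and 0.08. Zfp36 was at -0.57, 0.03 and 0.14, Jun at -0.44, 0.10 and 0.21, and Junb at 0.02, 0.42 and 0.53.

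At 1.5-fold, 0 members were higher and 1 (Klf4) was lower after quantile normalization, against 7.45% and 2.59% of the 6364 genes compared. With median scaling 3 (Dusp1, Egr1 and Klf2) were higher and 0 lower, against 19.4% and 0.00%, and on the deposited values the same 3 were higher, against 29.7%, with 0.00% lower. The median over the 7 was 0.02, 0.42 and 0.53, beside -0.05, 0.33 and 0.44 over all genes. Relative to that median Dusp1 was at 0.59 after quantile normalization and 0.71 on the deposited values, Egr1 at 0.24 and 0.37, and Klf4 at -0.62 and -0.41. The WT response and this comparison share the WT vehicle array, so the like values of Dusp1, Klf2 and Zfp36 in both are one measurement seen from 2 sides.

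**Figure D3:**
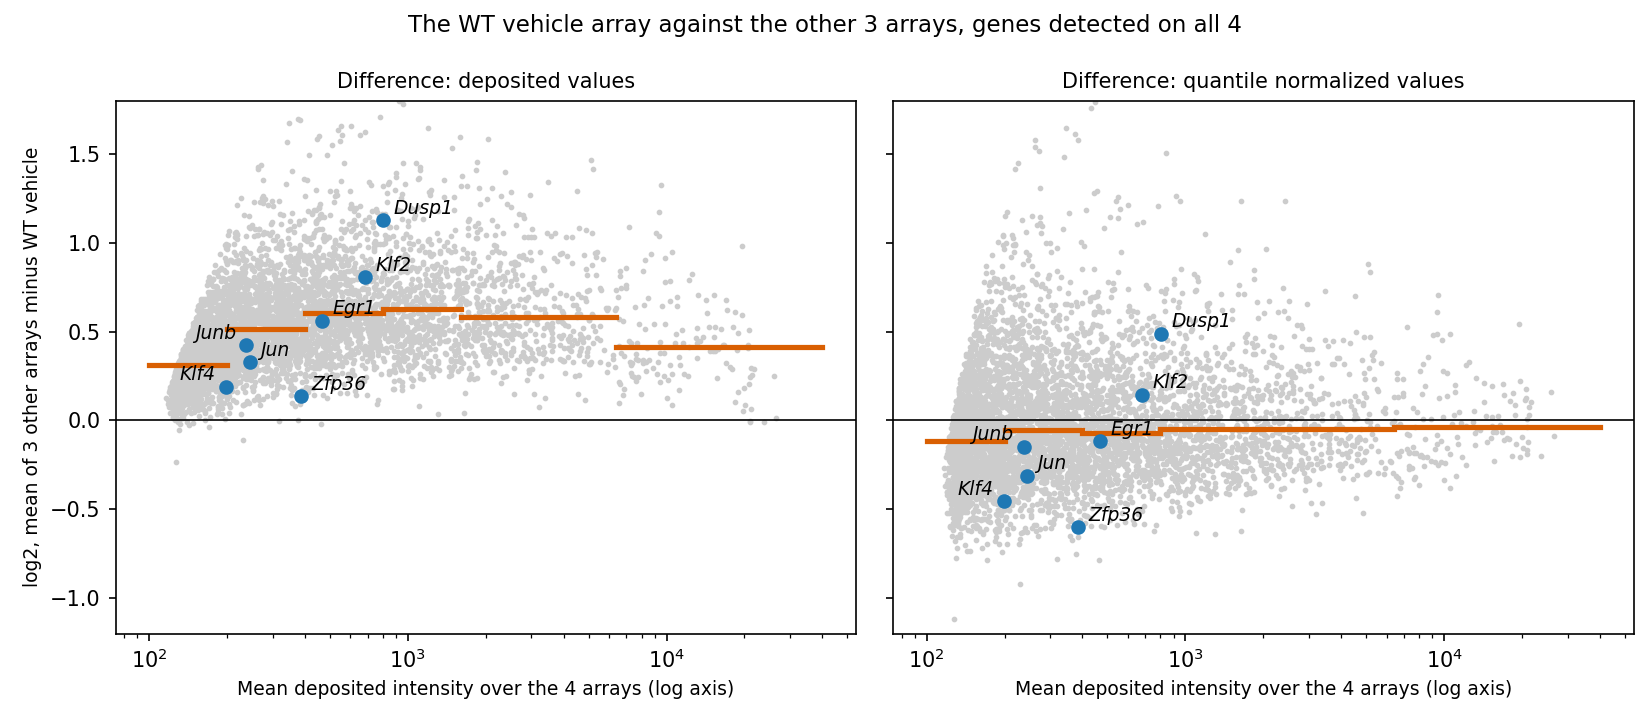
Mean log2 value of the other 3 arrays minus WT vehicle (vertical axis) against mean deposited intensity (log axis) for 5471 genes detected on all 4 arrays (grey), for deposited values (left) and quantile normalized values (right); bars are medians within brightness bands, and 22 and 17 genes above 1.8 lie off the axis. Dusp1 and Klf2 lie above the median of their band and Zfp36, Klf4, Jun, Junb and Egr1 below it in both panels, with Egr1 nearest to it.

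Set against the other 3 arrays together, the WT vehicle array was not evenly dim for the immediate early genes. The mean of the other 3 exceeded WT vehicle by a log2 difference of 1.13 for Dusp1 on the deposited values, where genes at 800 to 1600 had a median of 0.63, and by 0.81 for Klf2, where genes at 400 to 800 had 0.60. For Zfp36, with a mean intensity of 385.6, the excess was 0.14, where the band at 200 to 400 had a median of 0.52. Markers of other cell types were not evenly dim on this array either. The summed intensity of 7 fibroblast markers was 2266 against 6422 to 6786 on the others, and most of that gap came from Dcn, the decorin gene, at 395.2 against 3887 to 4135; in the WT response after quantile normalization 2 of 6 fibroblast markers were past 1.5-fold higher, with a list median of -0.09 beside -0.05 over all genes. The sum of 8 endothelial markers was 10169 against 14715 to 15370, but their median in the WT response after quantile normalization was -0.06, close to that over all genes. The sum of smooth muscle and pericyte markers, 10128, was near the 10041 of WT DOC/salt, and that of red cell markers, 19669, near its 20066. The red cell sum hid single genes, as 2 of 3 were past 1.5-fold higher in the WT response on each scale. The shares over all genes were 8.79%, 25.3% and 26.9%. After quantile normalization the red cell median there was 0.93, with Hba-a1 at -0.18, and the smooth muscle and pericyte median was -0.21. Of 9 detected reference genes, Ywhaz was the 1 past 1.5-fold higher in the WT response after quantile normalization (157.5 against 342.1 to 395.8 on the others), Tbp was at -0.53, and the list median was -0.08. Their part in the differences of the immediate early genes was not tested. In bulk RNA, fewer cells of a type and less RNA per cell cannot be told apart.

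The genotypes were also compared under DOC/salt. Junb and Egr1 stood highest among the members, each a little under 1.5-fold higher in CM-MRKO hearts. Junb had a log2 difference of 0.52 (1.44-fold) after quantile normalization, 0.36 when median scaled and 0.51 as deposited, and Egr1 had 0.50 (1.41-fold), 0.37 and 0.52. At or above Junb lay 1.52% of all 6689 genes after quantile normalization and 0.972% on the deposited values, and at or above Egr1 1.76% and 0.867%. Both exceeded the technical spread of 0.19, which was taken after quantile normalization. The other 5 genes lay between -0.12 (Dusp1) and 0.17 (Klf4) after quantile normalization, and the second Klf4 probe was at -0.46, against the direction of the first.

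None of the 7 passed 1.5-fold in either direction under DOC/salt. Of all genes 0.882% were higher and 0.942% lower after quantile normalization, 0.105% and 0.284% with median scaling, and 0.419% and 0.164% on the deposited values. The median over the 7 was 0.07, 0.01 and 0.16, beside 0.02, -0.02 and 0.13 over all genes. The vehicle pools are separate arrays, and in them Egr1 was also higher in CM-MRKO than in WT on each scale, at 0.24 and 0.37 relative to the median of all genes after quantile normalization and on the deposited values, beside 0.48 and 0.39 under DOC/salt. For Junb the corresponding values were 0.07 and 0.09 under vehicle and 0.51 and 0.37 under DOC/salt. Neutrophil markers were also brighter on the CM-MRKO arrays: their summed intensity over 4 genes was 545.9 on WT vehicle, 1029 on WT DOC/salt, 1360 on CM-MRKO vehicle and 2177 on CM-MRKO DOC/salt. Summed atrial markers (Nppa and Myl4) were 11553, 12159, 18575 and 20181 in the same order, and smooth muscle and pericyte markers 10128, 10041, 15730 and 13028. These sums are of deposited intensities and carry the brightness of each array. Of the 4 neutrophil genes summed, 2 were detected on a WT array and 1 on all 4 arrays, so the neutrophil sums include background readings. After quantile normalization Myl4 was at -0.21 and Nppa at 0.19 between genotypes under vehicle, and at 0.63 and 0.57 under DOC/salt. Smooth muscle and pericyte markers ranged from -0.31 (Pdgfrb) to 0.23 (Rgs5) under vehicle, and from -0.61 (Rgs5) to 0.32 (Acta2) under DOC/salt. Camp and Ngp of the neutrophil list, Sln and Myl7 of the atrial list and Tagln and Cnn1 of the smooth muscle list were not detected on any array. The part of these cells in the values of Egr1 and Junb was not tested.

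Whether the response depended on the cardiomyocyte receptor was not tested. The difference described here is the CM-MRKO response minus the WT response, which uses all 4 arrays. Dusp1 was lower in it on each scale, at -0.66, -1.19 and -1.15, its intensity being low on WT vehicle and level on the other 3 arrays. Klf4 was higher on each scale, at 0.83, 0.17 and 0.21, while its second probe was at -0.04, -0.26 and -0.22. Zfp36 was at 0.64, -0.02 and 0.02, Junb at 0.50, -0.06 and -0.02, Jun at 0.40, -0.18 and -0.13, Egr1 at 0.30, -0.34 and -0.30, and Klf2 at -0.10, -0.69 and -0.65. At 1.5-fold 2 genes (Klf4 and Zfp36) were higher and 1 (Dusp1) was lower after quantile normalization, against 6.79% and 10.1% of 6830 genes. With median scaling 0 were higher and 2 (Dusp1 and Klf2) lower, against 0.0293% and 23.2%, and on the deposited values the same 2 were lower, against 0.0293% higher and 20.2% lower. The median over the 7 was 0.40, -0.18 and -0.13, beside 0.05, -0.33 and -0.29 over all genes.

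Genes around the immediate early genes were read from further lists. These hold other early response genes, the MAP kinase route to the serum response element and the MAP kinase phosphatases. They also hold the machinery of AU-rich decay and deadenylation, and relatives of the members. Members themselves are counted in the lists of phosphatases, of decay and of the AP-1, EGR and KLF families. Among 57 other early response genes with a probe, 33 were detected on at least 1 array, and Fosb, Fosl1, Atf3, Egr2, Egr3, Nr4a1, Myc and Klf10 were among the 24 that were not. In the CM-MRKO response and under DOC/salt between genotypes, 0 of the 33 passed 1.5-fold on any of the 3 scales, with medians of -0.02 and 0.00 after quantile normalization. In the CM-MRKO response they ranged from -0.38 (Sgk1, a kinase gene that corticosteroid receptors induce) to 0.51 (Bhlhe40, a clock repressor gene), and between genotypes under DOC/salt from -0.25 (Mcl1) to 0.47 (Nfkbia, which encodes an inhibitor of NF-κB); Nfkbia is named after its value was seen.

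In the WT response 3 of the 33 were higher and 2 lower after quantile normalization, with a median of 0.00, beside 8.79% and 4.08% of all genes. When median scaled 10 were higher and 0 lower, and as deposited 11 and 0, beside 25.3% and 26.9% of all genes higher. The 3 higher after quantile normalization were Vcl (1.01), which encodes the adhesion protein vinculin, Mcl1 (0.85), a survival gene of the BCL2 family, and Bhlhe40, and each was also past 1.5-fold when median scaled and as deposited. Bhlhe40 was not detected on WT vehicle, where it read 106.0 against 173.0 on WT DOC/salt, so its fold is not given. The 2 lower genes on that scale, Jund (-0.62) and Hes1 (-0.60), are named after their values were seen. Vcl read 144.5 on WT vehicle and 325.6 to 354.1 on the other 3 arrays, and Mcl1 257.5 and 576.7 to 647.4, the same pattern as Dusp1. Of the brightest genes of the list, Zfp36l1, a paralogue of Zfp36, was at 0.36, Sgk1 at -0.06, Ccn2, a matrix-associated growth factor gene, at -0.40, Ier3 at -0.57, Btg1 at 0.08 and Id1 at -0.18. Between the vehicle pools 4 of 33 were higher and 0 lower after quantile normalization, with a median of -0.04, beside 7.45% and 2.59% of all genes. When median scaled 8 were higher, with a median of 0.45, and as deposited 13, with a median of 0.56, beside 19.4% and 29.7% of all genes.

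**Figure D4:**
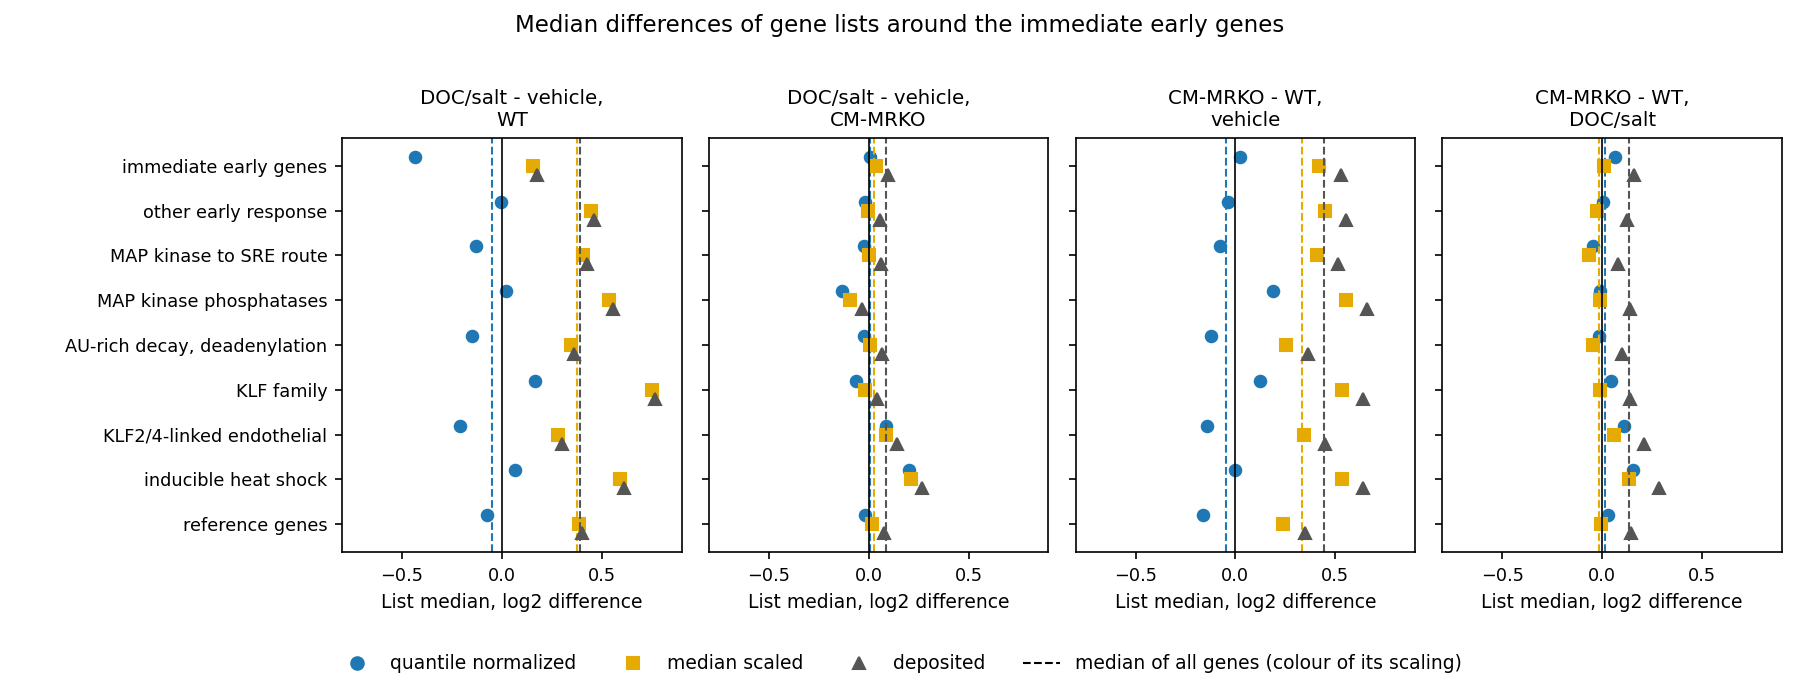
Median log2 difference (horizontal axis) of the immediate early genes and 8 further gene lists in the 4 comparisons, on 3 scales; dashed lines are the median of all genes on each scale. The phosphatase, decay and KLF family lists include immediate early genes. In the WT response the immediate early genes lie below the median of all genes on each scale. In the CM-MRKO response the inducible heat shock genes (0.20 after quantile normalization) and the MAP kinase phosphatases (-0.13) lie furthest from the median of all genes. Under DOC/salt the inducible heat shock genes (0.16) lie furthest from it.

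Of 21 genes of the MAP kinase route with a probe 14 were detected. In the CM-MRKO response and under DOC/salt 0 of 14 passed 1.5-fold on any of the 3 scales. In the WT response 0 of 13 passed after quantile normalization, 4 were higher when median scaled and 6 as deposited, and under vehicle 0, 2 and 2 of 13 were higher; shares over all genes were 8.79%, 25.3% and 26.9% higher in the WT response and 7.45%, 19.4% and 29.7% under vehicle. After quantile normalization they ranged from -0.35 to 0.39 in the CM-MRKO response. Srf, which encodes serum response factor, read 305.4 on WT vehicle, 461.7 on WT DOC/salt, 456.4 on CM-MRKO vehicle and 471.6 on CM-MRKO DOC/salt, and its log2 differences after quantile normalization were between -0.10 and 0.00. Mapkapk2, a kinase downstream of p38, was at 0.05 in the WT response and 0.24 in the CM-MRKO response, Map2k2 at -0.21 and 0.01, Map2k3 at 0.14 and -0.07, and Mapk14, the p38 gene itself, at -0.03 and -0.01.

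Of the MAP kinase phosphatases 7 of 11 were detected, with the member Dusp1 among them. Dusp7, which acts on ERK, read 359.8 on WT vehicle, 810.3 on WT DOC/salt, 730.0 on CM-MRKO vehicle and 709.7 on CM-MRKO DOC/salt, a pattern close to that of Dusp1. After quantile normalization it was the 1 of 7 past 1.5-fold in the WT response (0.63), where Dusp6 was at 0.13, Dusp16 at 0.02, Dusp10 at -0.25 and Dusp8 at -0.55. On each of the other scales 3 of 7 were higher in the WT response. Under vehicle 0 were higher after quantile normalization, 3 when median scaled and 4 as deposited. Dusp1 is counted among those higher when median scaled and as deposited in both comparisons. The shares of all genes were the same as for the MAP kinase route. In the CM-MRKO response 0 of 7 passed on any of the 3 scales, with a median of -0.13 after quantile normalization, and under DOC/salt 0 of 7, with a median of -0.01.

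In the list of AU-rich decay and deadenylation 11 of 16 genes were detected. In the WT response after quantile normalization 1 was higher, Elavl1 (0.72), which encodes the stabilising protein HuR, and 1 lower, Zfp36, while on each of the other scales 4 were higher and 0 lower. Under vehicle 1 was higher (Elavl1, 0.77) and 1 lower (Cnot3, -0.75, named after its value was seen) after quantile normalization, and 3 higher and 0 lower on each of the other scales. Shares of all genes higher were 8.79%, 25.3% and 26.9% in the WT response and 7.45%, 19.4% and 29.7% under vehicle. Shares lower after quantile normalization were 4.08% and 2.59%. Under DOC/salt and in the CM-MRKO response 0 of 11 passed on any of the 3 scales. Zfp36l1 was the brightest gene of the list and lay at 1903 on WT vehicle and 3595 to 3783 on the others, unlike its paralogue Zfp36, whose deposited values were level over the 4 arrays.

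Among relatives of the members, 4 of 10 AP-1 genes with a probe were detected (Atf2, Jun, Junb and Jund), 2 of 6 in the EGR and NAB family (Egr1 and Nab1) and 8 of 15 in the KLF family. Jund read 126.6 on WT vehicle, 122.4 on WT DOC/salt, 153.6 on CM-MRKO vehicle and 150.8 on CM-MRKO DOC/salt. As deposited it was thus higher on both CM-MRKO arrays, like Junb, with readings not far above the detection limits of 108.7 to 121.7. After quantile normalization Jund was at -0.62 in the WT response and -0.18 in the CM-MRKO response, so the likeness is given for the deposited values only. Klf9, a corticosteroid-responsive factor gene, read 392.3, 740.6, 810.4 and 838.6, and Klf6 read 329.6, 570.7, 639.4 and 540.0, both dim on WT vehicle like Klf2. Among endothelial genes that KLF2 and KLF4 are known to act on, Nos3, the endothelial nitric oxide synthase gene, read 363.3, 513.8, 552.1 and 633.8, and Tek, the angiopoietin receptor gene, 297.4, 654.9, 560.4 and 583.9. In that list 1 of 8 (Tek, 0.60) was past 1.5-fold higher in the WT response after quantile normalization and 2 on each of the other scales, and under vehicle 0, 1 and 2 of 8 were higher, beside 8.79%, 25.3% and 26.9% of all genes in the WT response and 7.45%, 19.4% and 29.7% under vehicle. In the CM-MRKO response and under DOC/salt 0 passed on any of the 3 scales. Of the inducible heat shock genes, which also respond to stress and handling, Hspa1a read 191.3 on WT vehicle, 108.5 on WT DOC/salt, where it was not detected, 139.4 on CM-MRKO vehicle and 239.4 on CM-MRKO DOC/salt. It was thus lower after DOC/salt in WT and higher after it in CM-MRKO, and under DOC/salt it was higher in CM-MRKO than in WT, the direction of Junb and Egr1; under vehicle it was lower in CM-MRKO, against their direction. Its log2 difference in the CM-MRKO response was 1.07, 0.72 and 0.78 on the 3 scales, and it was the 1 of 8 past 1.5-fold there and under DOC/salt on each scale, with list medians of 0.20 and 0.16 after quantile normalization. Its part in the values of Junb and Egr1 was not tested.

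The mean profile of the 7 detected genes after quantile normalization, centred over the arrays, was 0.11 on WT vehicle, -0.13 on WT DOC/salt, -0.01 on CM-MRKO vehicle and 0.03 on CM-MRKO DOC/salt. The 5 genes with the smallest root mean square distance to it, at 0.0040 to 0.011, were Dis3l2, Akr7a5, Dynlrb1, Rev1 and Strn4, over 4 arrays. With so few arrays 1584 of 5464 other genes lay within 0.1 of the profile. The members themselves lay further from it, between 0.14 (Jun and Klf2) and 0.29 (Dusp1), so the mean describes none of them closely. With median scaling the nearest 5 were other genes (Dynll1, Ndufa4, Cd3eap, Spcs3 and Pdgfb).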

How the data were processed

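Linear, non-log intensities were deposited by the authors with background included, as the values show; the submitters' processing notes name Partek without a version, and what it did is not stated. Another table, with 4 value columns, matched no label and was left out. Genes were named from the platform annotation. Background was corrected by normexp (maximum likelihood, offset 16), then values were quantile normalized and put on the log2 scale (limma 3.58.1, R 4.3.3). Detection on an array required that fewer than 0.01 of the 1341 probes for odorant, vomeronasal and taste receptors reached a probe's brightness. A gene's brightest probe represented it, it was compared where detected on at least 1 array of the comparison, and it was counted at 1.5-fold. For the technical spread, the log2 differences of a gene's 2 brightest detected probes were subtracted. The SD of these values over genes was then divided by the root of 2. This spread was taken on the quantile normalized values only and was used unchanged for every alternative. Samples were grouped by title. No test was possible with 1 array per group. The quantile normalization was tested on simulated data. Later steps were run in Python 3.11.15 with pandas 2.3.3 and were not tested in this way. From each list, up to 6 genes were named by brightness, with any past 1.5-fold the same way on all 3 scales. Alternatives were other scalings, no background correction, other filters and the mean of a gene's probes. The members and lists were chosen with earlier results of these data known.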

Additional observations from a re-analysis of the deposited data

Results flagged for a closer look

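For 2 detected genes the DOC/salt response went opposite ways in the 2 genotypes and differed by at least 1.5-fold after quantile normalization; with 1 pooled array per group the difference was not tested. For Klf4 the response was -0.44 in WT and 0.39 in CM-MRKO on the log2 scale, a difference of 0.83, while its second detected probe gave -0.04. On the other scales Klf4 was higher in both genotypes, at 0.13 and 0.30 when median scaled and 0.15 and 0.36 as deposited, with differences of 0.17 and 0.21. For Dusp1 the response was 0.52 in WT and -0.13 in CM-MRKO, a difference of -0.66, and the directions were also opposite when median scaled (1.10 and -0.09) and as deposited (1.12 and -0.04), with intensities of 425.3 on WT vehicle and 920.0 to 942.7 on the other 3 arrays.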

How the results depend on the processing

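The comparisons that use WT vehicle depended on the scaling, and the cause was not tested. In the WT response the median of the immediate early genes was 0.16 when median scaled and 0.17 as deposited, with 2 higher and 0 lower past 1.5-fold on either scale, and Zfp36 turned to 0.037 and 0.054. Between genotypes under vehicle the median was 0.42 and 0.53, with 3 higher and 0 lower on either, and Klf4 turned to 0.033 as deposited. In the difference of responses the median was -0.18 and -0.13, with 0 higher and 2 lower on either, and Zfp36 turned to -0.023 when median scaled. Quantile normalization without background correction left 0 lower in the WT response, 0 lower under vehicle and 0 higher in the difference, and the mean of all detected probes left 0 lower under vehicle and 1 higher in the difference. Counts and medians in the CM-MRKO response and under DOC/salt stayed within the spread or within 1.5 times under every alternative run, as did all results when scaled to detected probes, when limited to genes detected on every array, and without the filter on dim probes. No paired analysis was possible because each group is 1 array. Pools of 8 animals give no spread between animals, and probes near the detection limit, such as the second Klf4 probe, carry little signal above background.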
